A study of Rattus norvegicus with 8 samples.

Results

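The VEGF and angiopoietin genes described here are 8 genes, 3 that encode ligands (Vegfa, Angpt1 and Angpt2) and 5 that encode receptors of endothelial cells (Kdr, Flt1, Nrp1, Tek and Tie1). They were named by their place in the pathway and not by their values, and were found on the array through the RefSeq transcript accession of each probe. They were covered by 11 of the 30367 probes and make up 8 of the 15637 genes with a named probe. Expression was measured on 1-colour Agilent arrays in total RNA from whole kidneys of male rats, aged 10 weeks per the labels. The control group received saline and the treated group received colistin, a polymyxin antibiotic known for toxicity to the kidney, at 30 mg/kg. Both groups were labelled day 28 and had 4 arrays each. No strain, route or dosing schedule is given in the sources used here, and the labels number the samples without saying that each came from a separate animal. The p-values are thus set against the variation among these samples, which may be partly technical.

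Vascular endothelial growth factor A (VEGF-A) is made in the kidney mainly by podocytes and tubular cells, and it acts on the receptors of nearby glomerular and peritubular capillaries. KDR (VEGFR2) is the main signalling receptor, FLT1 (VEGFR1) binds VEGF-A tightly but signals weakly and can act as a decoy, and neuropilin-1 (NRP1) is a co-receptor. In the second system angiopoietin-1, made by pericytes and other perivascular cells, activates TEK (TIE2) and steadies vessels, angiopoietin-2 modulates that signal, and TIE1 is a related receptor that partners TEK.

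Of the 5 receptor genes 2, Kdr and Flt1, fell after colistin, and no ligand gene passed the test. Kdr fell 7.3-fold (95% interval 4.33 to 12.3) and Flt1 fell 11.2-fold (95% interval 4 to 31.3), and both passed the test across 12411 genes (limma, Benjamini-Hochberg adjusted p = 0.00801 and 0.0387). Tie1 was well above background on 3 saline arrays and on 0 colistin arrays. Vegfa had 4 probes, and 1 of them was higher in the colistin mean while the other 3 were lower. Of the 7 member genes that could be tested, 2 were called lower and 0 higher, and over all genes tested 0.54% were called lower and 1.46% higher. At an unadjusted p under 0.05 (limma), 4 members were lower and 0 higher, and over all genes tested 12.2% were lower and 10.5% higher. These shares are the background for each such count given for a list. Of all 12411 genes tested, 6815 had a negative and 5596 a positive difference. The filter on dim probes asked for 3 arrays well above background in saline or in colistin, so Tek and Tie1 entered the test through the saline group alone, in which they were detected on 3 arrays each, and their direction is partly set by that filter.

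The promoter windows of 4 members are shown first. Kdr, Flt1 and Tie1 had colistin arrays that all lay below the saline arrays, as did 11.7% of all genes tested. Vegfa is the ligand of the first 2. The colistin values of Tie1 lay in the background, and its direction is partly set by the filter on dim probes. The windows come from RefSeq on the rat assembly GRCr8 and run from 250 bases before a gene's start to 50 bases after it, 5′ to 3′ on the gene's strand. Windows were found for 5 members. The window of Kdr lies at chr14:32571813-32572112 on the plus strand, Flt1 at chr12:12333180-12333479 on the plus strand, Tie1 at chr5:137304932-137305231 on the minus strand, and Vegfa, which had 2 windows, at chr9:22452604-22452903 on the plus strand for the first. Capitals mark matches, on either strand, to cores of sites for ETS factors (in Kdr the core CCGGAA, in Flt1 and Tie1 the core AGGAAG) and to the GATA site (in Vegfa, with the letters AGATAA). The first match in Kdr and the match in Tie1 lie on the opposite strand and therefore appear as the reverse complement of the core.
Kdr: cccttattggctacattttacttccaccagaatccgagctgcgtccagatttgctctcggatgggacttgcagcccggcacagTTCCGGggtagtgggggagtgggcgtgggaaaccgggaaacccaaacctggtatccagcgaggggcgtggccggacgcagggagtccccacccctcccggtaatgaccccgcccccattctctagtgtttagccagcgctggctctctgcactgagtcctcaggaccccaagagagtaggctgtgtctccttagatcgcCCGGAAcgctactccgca
Flt1: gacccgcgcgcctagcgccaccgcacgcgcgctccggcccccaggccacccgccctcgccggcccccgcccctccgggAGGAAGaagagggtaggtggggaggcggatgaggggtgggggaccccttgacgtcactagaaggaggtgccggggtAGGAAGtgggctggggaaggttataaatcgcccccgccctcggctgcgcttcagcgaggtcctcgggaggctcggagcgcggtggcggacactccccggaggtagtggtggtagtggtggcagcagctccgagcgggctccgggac
Tie1: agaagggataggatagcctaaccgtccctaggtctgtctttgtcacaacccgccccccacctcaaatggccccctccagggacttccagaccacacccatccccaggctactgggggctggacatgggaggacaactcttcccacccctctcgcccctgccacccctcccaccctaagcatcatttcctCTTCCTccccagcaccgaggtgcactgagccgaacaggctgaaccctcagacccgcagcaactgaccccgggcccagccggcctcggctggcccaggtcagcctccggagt
Vegfa: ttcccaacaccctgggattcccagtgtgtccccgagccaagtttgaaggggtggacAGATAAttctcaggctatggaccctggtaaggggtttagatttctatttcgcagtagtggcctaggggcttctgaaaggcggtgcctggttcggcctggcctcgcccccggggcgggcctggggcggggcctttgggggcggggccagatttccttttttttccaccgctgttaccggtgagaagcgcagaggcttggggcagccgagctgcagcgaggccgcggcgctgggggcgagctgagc

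All 3 of these receptor windows held an ETS core, either AGGAAG or CCGGAA. The share of all windows that hold either core was not counted. Kdr held CCGGAA at position -167, on the opposite strand, and at position 33 from the start. Flt1 held AGGAAG at positions -172 and -96, and Tie1 held it at position -61 on the opposite strand. Such matches are common. The core of the Flt1 and Tie1 matches, AGGAAG, was found in 34.5% of all windows, and that of Kdr in 15% of all 33469 RefSeq windows of 300 bases. The first Vegfa window held AGATAA at position -194, a match found in 11.6% of all windows, and the second Vegfa window, at chr9:22460028-22460327, held none of the letters searched. The core of the hypoxia response element, ACGTG, is in 19.3% of all windows, and its letters were absent from the windows of Kdr, Flt1, Tie1, Nrp1 and both windows of Vegfa. Sequence outside these windows of 300 bases was not searched, so sites farther from a start could not be found. The Nrp1 window held none of the letters searched. The member windows were rich in G and C, with 57.3% to 72.7% against a median of 51.7% over all windows.

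Kdr showed the closest replicates. Values here are log2 of the processed spot signal relative to the array's 75th percentile, so that 0 is the signal of a probe at that percentile. On saline arrays 1 to 4 Kdr stood at 2.90, 3.32, 2.71 and 2.54, and on colistin arrays 1 to 4 at -0.35, 0.53, -0.20 and 0.01. The groups did not overlap, and the lowest saline array lay above the highest colistin array by far more than either group's range. The difference was -2.87 ± 0.33 (SE, n = 4 and 4) on the log2 scale. The pooled SD within groups was 0.36, against a median of 0.82 over all genes, and 14.2% of genes had a smaller one.

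The lower Kdr signal was also plain before scaling. The processed signal was 1170, 1920, 1280 and 911 intensity units on the saline arrays and 240, 445, 235 and 320 on the colistin arrays, a log2 difference of -2.09. The unscaled difference is smaller because the 75th percentile of signal was higher on every colistin array (271 to 317) than on every saline array (156 to 197), as was the share of spots well above background (79.1% to 83.9% against 69.3% to 75.8%). The part of this difference in brightness in the results was not tested. The arrays lay on 3 slides, each with both groups. Slide 1 held 2 saline arrays and 1 colistin array, slide 2 held 1 of each, and slide 3 held 1 saline array and 2 colistin arrays. The Kdr difference was -2.19 on slide 1, -3.52 on slide 2 and -2.87 on slide 3. Since the groups did not overlap, a negative sign on every slide was fixed in advance and adds no support. With the slide as a fixed block the Kdr difference was -2.80 and the call was lost (limma adjusted p = 0.0633).

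Flt1 fell too, with wider spread between arrays. The saline arrays stood at 1.44, 1.39, 2.46 and 3.31 and the colistin arrays at -1.45, -1.64, -2.38 and 0.12, without overlap. Saline array 4 and colistin array 4 were the highest of their groups, and the difference was -3.48 ± 0.65 (SE, n = 4 and 4). Within slides 1 to 3 the difference was -4.01, -3.77 and -3.12, and with the slide as a block it was -3.62 and was not called (limma adjusted p = 0.0899). The call was also sensitive to single arrays. It was lost without any 1 of saline arrays 1 to 4 or colistin arrays 1 to 3 (limma adjusted p = 0.0577 to 0.104) and kept without colistin array 4 (adjusted p = 0.0432), with log2 differences of -3.97 to -3.10. Under another background correction of the same spots (normexp) the Flt1 fold was 7.02. Kdr, by contrast, was called in all 8 of these fits (limma adjusted p = 0.0137 to 0.0351).

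**Figure D1:**
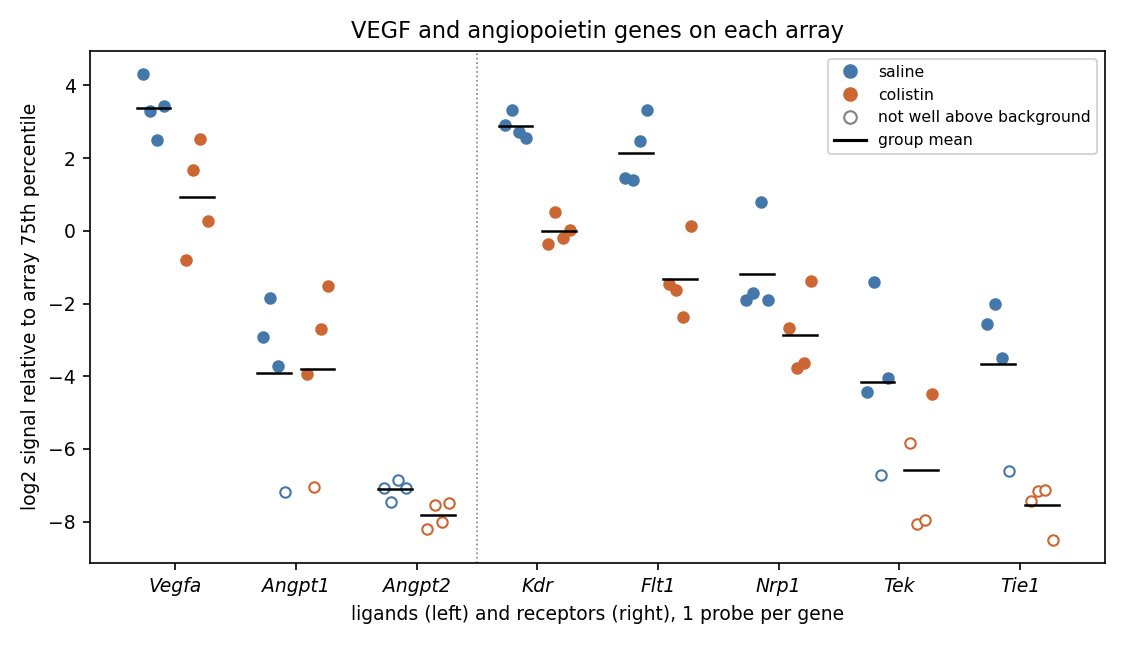
Log2 signal relative to the array's 75th percentile (y axis) for the 8 member genes (x axis, ligands left of the dotted line), 1 point per array and 1 probe per gene, with 4 saline and 4 colistin arrays and a bar at each group's mean. Open points are spots that were not well above background. Kdr and Flt1 separate without overlap, Tie1 is above background on 3 saline arrays and 0 colistin arrays, and Angpt2 is open on all 8. Heights are not comparable between genes.

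Tie1, the partner receptor, was not detected above background on the colistin arrays. The saline arrays read -2.57, -2.00, -3.50 and -6.60, of which saline array 4 was not well above background, and the colistin arrays read -7.43, -7.15, -7.14 and -8.49, none of them well above background. The measured groups did not overlap. No fold is given, since 5 of the 8 values lie in the background. The fitted difference, which depends on those values, was -3.89 ± 0.95 (SE, n = 4 and 4) and did not pass (limma adjusted p = 0.0861), and it was -1.05 under normexp. Without saline array 4 it passed (difference -4.86, limma adjusted p = 0.00938). Within slides 1 to 3 it was -2.57, -5.14 and -4.46, a sign fixed in advance because the measured groups did not overlap.

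Tek, the angiopoietin receptor, was near the detection limit. It read -4.42, -1.41, -6.72 and -4.06 on the saline arrays, well above background on all but saline array 3, and -5.84, -8.07, -7.96 and -4.49 on the colistin arrays, of which only colistin array 4 was well above background. The groups overlapped, and the difference of -2.43 ± 1.22 (SE, n = 4 and 4; 95% interval -5.23 to 0.36) did not pass (limma adjusted p = 0.268). The sign was not the same on all slides: -3.82 on slide 1, -6.55 on slide 2 and 1.56 on slide 3, where the saline array was the 1 below the detection limit.

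Nrp1, the co-receptor, was measured by 1 probe printed as 10 spots on each array. The spots of an array agreed closely, with an SD of 0.06 to 0.14 on the log2 scale, less than the spread between arrays. The saline arrays read -1.91, -1.70, 0.80 and -1.91 and the colistin arrays -2.66, -3.78, -3.63 and -1.39. Saline array 3 stood far above the other saline arrays, with 314 to 377 intensity units over its spots against 37 to 65.3 on the others. Colistin array 4, with 112 to 131 units, was above 3 of the 4 saline arrays, so the groups overlapped. The difference of -1.69 ± 0.78 (SE, n = 4 and 4; 95% interval -3.48 to 0.10) did not pass (limma adjusted p = 0.238), and it was -1.03 without saline array 3. It was negative on each slide, at -1.88, -1.93 and -2.83.

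Of the 3 receptors detected on all 8 arrays, Kdr and Flt1 passed and had groups that did not overlap, and Nrp1 did neither. Tie1 and Tek, which passed the filter only through the saline group, are left out of that count; the measured Tie1 values did not overlap either. Over all genes tested, 11.7% had colistin arrays that all lay below the saline arrays and 6.89% had them all above. The median difference over all 5 receptors, Tek and Tie1 included, was -2.87, against -0.14 over all genes tested, and it was -2.80 with the slide as a block and -1.09 under normexp, where the median over all genes was -0.34. On colistin arrays 1 to 4 it was -3.22, -3.48, -3.47 and -2.03 against the saline mean, and within slides 1 to 3 it was -2.57, -3.77 and -2.87.

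Kdr and Flt1 were set against each other array by array. Across the 8 arrays their correlation was 0.85, but both differ between groups and the arrays share that difference. After each group's mean was taken away it was -0.32 over the same 8 arrays. Colistin array 4 and saline array 4, the highest of their groups for Flt1, were not the highest for Kdr. The same measure is not given for Tie1 and Tek, which were in the background on 5 and 4 of the 8 arrays.

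**Figure D2:**
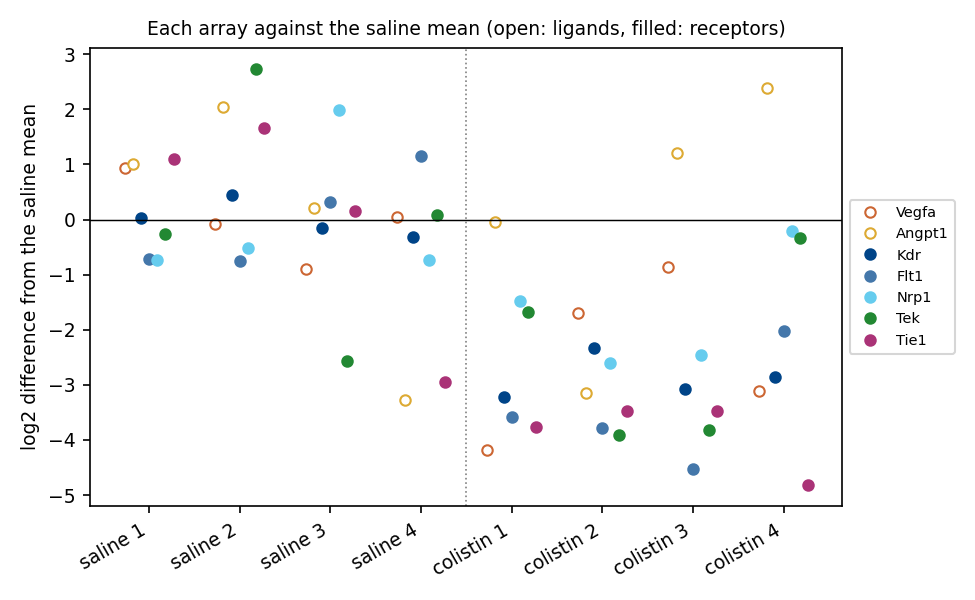
Difference of each array from the mean of the 4 saline arrays (y axis, log2) for the 7 tested members, with the saline arrays left and the colistin arrays right of the dotted line. Filled points are receptors and open points ligands. All receptor points of the colistin arrays lie below 0, from -4.82 (Tie1, colistin array 4) to -0.21 (Nrp1, colistin array 4), and the open points of Angpt1 lie on both sides.

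Vegfa, the main ligand, gave different answers from different probes. The probe that represents the gene here, chosen because it had the highest mean signal, is A_64_P099891. It read 4.31, 3.30, 2.49 and 3.43 on the saline arrays and -0.80, 1.68, 2.52 and 0.28 on the colistin arrays. Colistin array 3 was level with the lowest saline array, and the other 3 colistin arrays lay below all saline arrays. Its difference was -2.46 ± 0.75 (SE, n = 4 and 4; 95% interval -4.18 to -0.74), which did not pass over all genes (limma unadjusted p = 0.0108, adjusted p = 0.13). The pooled SD of 1.17 was above that of 67.6% of genes.

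The remaining Vegfa probes were each well above background on all 8 arrays. Probe A_64_P099886 read 0.55, 0.36, 0.64 and -1.91 on the saline arrays and 2.09, 1.70, 2.08 and 0.20 on the colistin arrays. Its 3 highest values were colistin arrays 1, 2 and 3, saline array 4 was far below the other saline arrays, and colistin array 4 lay among the saline arrays. In a fit over all 23710 kept probes, of which 1.48% were called, its difference was 1.61 ± 0.69 (SE, n = 4 and 4; limma unadjusted p = 0.0475, adjusted p = 0.197), and it was 1 on the log2 scale without saline array 4.

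The other 2 Vegfa probes were lower in the colistin mean. Probe A_64_P099893 read 0.91, 1.38, 0.42 and 0.19 on the saline arrays and -2.34, -1.10, 0.66 and 0.06 on the colistin arrays, a difference of -1.40 ± 0.65 (limma adjusted p = 0.223). Probe A_64_P155983 read 1.42, 1.63, 1.34 and -2.25 on the saline arrays and 0.64, -3.09, 0.86 and -0.74 on the colistin arrays, a difference of -1.12 ± 1.15 (limma adjusted p = 0.561). Both overlapped between groups. In the same fit A_64_P099891 had an adjusted p of 0.117, so no Vegfa probe passed.

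The transcript record on the array does not sort these probes by direction. A_64_P099886, higher after colistin, and A_64_P155983, lower, were both assigned to the record NM_001287107, and A_64_P099891 and A_64_P099893, both lower, to NM_001110334. The positions of the probes along the transcripts were not used here. The 2 probes of the first record shared a low value on saline array 4 (-1.91 and -2.25), which the 2 probes of the second record did not (3.43 and 0.19).

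The changes of the 4 probes were compared in pairs, on the difference between 2 probes on each array. The change of A_64_P099886 exceeded that of A_64_P099891 by 4.07 on the log2 scale (two-sided exact permutation test, p = 0.0286, the smallest that 4 against 4 arrays can give; 0.0857 after adjustment over 6 pairs). It exceeded that of A_64_P155983 by 2.73 (exact p = 0.0286, adjusted 0.0857) and that of A_64_P099893 by 3.01 (exact p = 0.0571, adjusted 0.114). No pair passed after adjustment. The smallest exact p in all 3 pairs that hold A_64_P099886 would by itself still not pass over 6 pairs. The test therefore could not decide whether that probe differs from the other 3. Among the 3 probes that were lower, the changes differed by at most 1.34 (exact p = 0.143 to 0.886).

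By slide means the split between the Vegfa probes held on every slide, but each mean rests on 1 or 2 arrays of a group. For A_64_P099886, colistin array 4 (0.20) lay below saline array 3 (0.64) on slide 3. Its difference on slide 1 includes the low saline array 4 (-1.91). A_64_P099886 was higher by 2.38, 1.73 and 0.51 on slides 1 to 3, A_64_P099891 was lower by -2.19, -0.77 and -2.75, A_64_P099893 by -1.65, -0.72 and -1.55, and A_64_P155983 by -2.67, -0.77 and -1.39. Probes of opposite sign within a gene are common on these arrays, in 32.8% of the 1244 genes with more than 1 probe well above background on all arrays and in 9 of the 13 genes, Vegfa among them, with at least 4 such probes. The range of the difference over a gene's probes had a median of 0.63 over the 1244 genes, and 0.322% of them had at least the 4.07 of Vegfa. A range grows with the number of probes, and among the 13 genes with at least 4 the median was 1.5 and 1 gene, Vegfa, reached 4.07. The Vegfa values of other paragraphs are those of A_64_P099891 unless another is named.

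**Figure D3:**
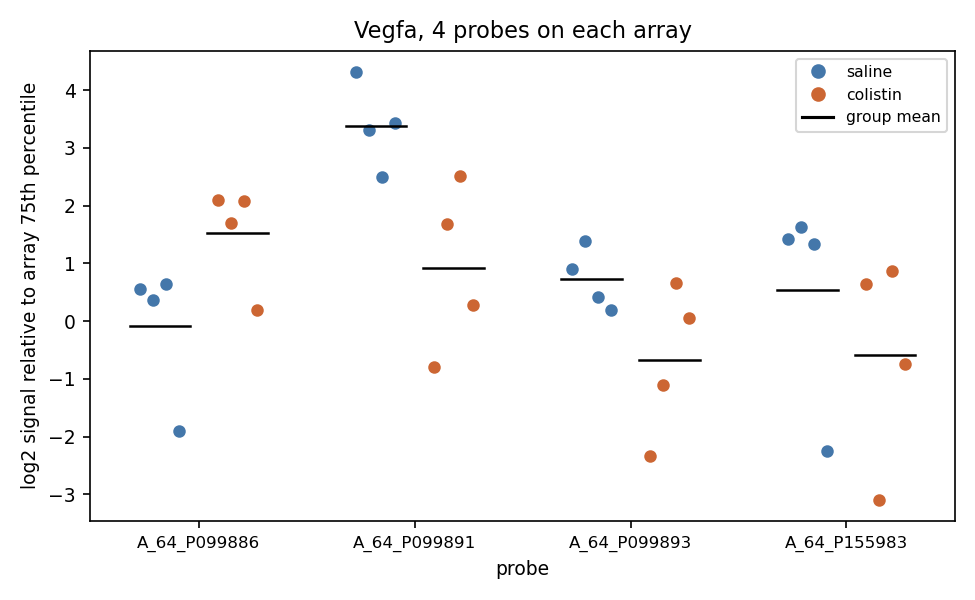
Log2 signal relative to the array's 75th percentile (y axis) for the 4 Vegfa probes (x axis), 1 point per array, with 4 saline and 4 colistin arrays and a bar at each group's mean. The colistin mean is above the saline mean for A_64_P099886 (1.52 against -0.09) and below it for the other 3 probes. Heights are not comparable between probes.

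Angpt1, the activating ligand of TEK, had no settled direction. It read -2.91, -1.86, -3.71 and -7.18 on the saline arrays and -3.95, -7.05, -2.70 and -1.52 on the colistin arrays, and saline array 4 and colistin array 2 were not well above background. The groups overlapped almost wholly. The difference was 0.11 ± 1.44 (SE, n = 4 and 4; 95% interval -3.20 to 3.42; limma adjusted p = 0.973), an interval that holds both 0 and the difference seen for Kdr. The sign turned with the slide as a block (-0.61), without saline array 4 (-0.98), without colistin array 3 (-0.26) and without colistin array 4 (-0.65). Angpt2 was not well above background on any of the 8 arrays, and no fold is given for it.

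Over the 2 ligands tested the median difference was -1.18, and it was -2.11, -2.42, 0.18 and -0.36 on colistin arrays 1 to 4 against the saline mean. The value rests on 1 probe for each gene and, for Vegfa, on which probe was used. With the mean over all probes of a gene in place of 1 probe, Vegfa changed by -0.84 and the ligand median was -0.37. With the slide as a block the ligand median was -1.31.

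No other tested gene of these families passed. Of the 8 further VEGF and angiopoietin genes listed, 6 were tested and 0 passed in either direction (limma; 2 lower and 1 higher at an unadjusted p under 0.05), with a median of -0.29. Flt4, the receptor for the lymphatic VEGF ligands, differed by -0.96 ± 0.29 and its groups did not overlap (SE, n = 4 and 4; limma adjusted p = 0.129). Vegfd, a ligand of FLT4, differed by -2.22 (limma adjusted p = 0.123) and Vegfb, a ligand of FLT1, by 2.61 (limma adjusted p = 0.172). Vegfb was well above background on 2 saline and 4 colistin arrays. Its size is uncertain, and its direction is partly set by the filter on dim probes. Vegfc, another FLT4 ligand, differed by -0.29, Angpt4, a further TEK ligand, by -0.29 and Nrp2, the second neuropilin, by -0.01. Pgf, the placental growth factor that binds FLT1, was not tested, and Ptprb had no named probe.

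Genes that carry the receptor signal inside the cell were not lower as a list. Of 22 tested transducers of KDR and TEK signalling, 1 was called higher, 0 lower, and 8 had a negative and 14 a positive difference, with a median of 0.50. The median was 0.69 with the slide as a block and -0.02 under normexp, so its sign is not settled. Nck2, an adaptor that links activated KDR to the actin skeleton, rose by 3.58 ± 0.69 (SE, n = 4 and 4; limma adjusted p = 0.0454). With 2 of 4 saline arrays in the background that size is uncertain, and it was 0.87 under normexp (adjusted p = 0.0167). Nck2 entered the test through the colistin group alone, so its direction is partly set by the filter on dim probes. That call was lost in 7 of the 8 fits that leave out 1 array (limma adjusted p = 0.0538 to 0.119) and held without saline array 3. Mapk3, the kinase ERK1, differed by -0.92 ± 0.26, without overlap of the groups (limma adjusted p = 0.118), and Nos3, the endothelial nitric oxide synthase, differed by -1.55 (limma adjusted p = 0.22).

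Among the other ligands of the neuropilins and their plexin partners, 6 genes were tested, 1 was called higher and 0 lower, with a median of 0.52. Sema3b, a semaphorin that binds neuropilins, rose by 2.43 ± 0.38 (SE, n = 4 and 4; limma adjusted p = 0.0226), and its groups did not overlap. The call was lost without saline array 2 or without any 1 of the colistin arrays (limma adjusted p = 0.0547 to 0.0696). Sema3g, an endothelial semaphorin, differed by -0.74 ± 0.28 without overlap (limma adjusted p = 0.179).

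Regulators of Vegfa and the genes that low oxygen induces were tested as 2 lists. Of 8 oxygen-sensing genes, 0 were called (limma; 3 lower and 0 higher at an unadjusted p under 0.05), with a median of -0.31. Epas1, the HIF-2 alpha factor that endothelial cells carry, differed by -3.71 with no overlap (limma adjusted p = 0.0624), Egln3, an oxygen-sensing hydroxylase, by -1.19 (adjusted p = 0.108), Vhl, which marks the HIF proteins for breakdown, by -0.90 (adjusted p = 0.158) and Hif1a, HIF-1 alpha, by 2.24 (adjusted p = 0.23). Of 19 hypoxia-induced genes, 0 were called in either direction (limma; 1 lower and 0 higher at an unadjusted p under 0.05), with 8 negative, 11 positive and a median of 0.19. The 2 brightest, Eno1 and Pgk1, both enzymes of glycolysis, differed by -0.58 ± 0.35 and -0.42 ± 0.29, and Adm, adrenomedullin, by -1.09 (limma adjusted p = 0.19).

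Of 12 genes known to be induced in endothelial cells by VEGF, 0 were called (limma; 3 lower and 1 higher at an unadjusted p under 0.05), 9 had a negative difference, and the median was -0.57. Esm1, which tip cells of growing vessels secrete, differed by -1.89 ± 0.80 (limma adjusted p = 0.21), and Rcan1, a calcineurin inhibitor, by 0.48 ± 0.30. Dll4, the Notch ligand of tip cells, differed by -0.50 and Pdgfb, which recruits pericytes, by 2.71 (limma adjusted p = 0.0995).

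Of 9 tested secreted regulators of vessel growth, Ccn1 and Ccn2 among them, 1 was called higher and 0 lower, with a median of 0.05. Adamts1, a secreted protease that can bind VEGF-A, rose by 6.06 ± 0.54 (SE, n = 4 and 4; limma adjusted p = 0.00321) and by 2.85, or 7.21-fold, under normexp (adjusted p = 0.000877). It was well above background on 3 saline arrays and all 4 colistin arrays, and it was the 1 gene of these pathway lists that still passed with the slide as a block (difference 5.80, limma adjusted p = 0.0184). Serpinf1, the pigment epithelium-derived factor, differed by -0.04 ± 0.78 with a sign that was not stable, and Sparc, a matrix protein, by -1.76 (limma adjusted p = 0.0918).

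Endothelial transcription factors were measured because ETS, SOX and KLF factors bind endothelial receptor genes. Of 15 tested, 1 was called higher and 0 lower, with 10 negative and a median of -0.61. Klf4, which epithelial and smooth muscle cells also make, rose by 4.38 ± 0.82 (SE, n = 4 and 4; limma adjusted p = 0.0396). With 2 of 4 saline arrays in the background that size is uncertain, and it was 1.02 under normexp (adjusted p = 0.0212). Klf4 entered the test through the colistin group alone, so its direction is partly set by the filter on dim probes. That call held in 1 of the 8 fits that leave out 1 array, the fit without saline array 4. Erg, an ETS factor of endothelium, differed by -1.22 (limma adjusted p = 0.415), Elk3 by -2.43 (adjusted p = 0.192) and Ets2 by 0.15 ± 0.55.

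Markers of endothelial cells that are not VEGF or angiopoietin receptors were mostly lower as well. Of 13 tested markers, 2 were called lower, 0 higher (9 lower and 0 higher at an unadjusted p under 0.05), and the median was -2.43. A negative difference was found in 12, against 6815 of all 12411 genes. In 6 all colistin arrays lay below the saline arrays, against 11.7% of all genes. S1pr1, among those 6, entered the test through the saline group alone. Pecam1, an adhesion molecule of endothelial junctions, fell by 3.38 (difference -3.38 ± 0.41, SE, n = 4 and 4) and Plvap, which spans the openings of fenestrated capillaries, fell by 2.85 (difference -2.85 ± 0.35), both with a limma adjusted p of 0.0101. The list's mean level was -1.30 to -0.51 on the saline arrays and -3.52 to -1.93 on the colistin arrays. Ehd3, a marker of glomerular endothelium, was not well above background on any colistin array. It was not among the 13 tested markers, and no change is given for it. Under normexp the median was -1.03. With the slide as a block it was -2.49, and 0 of the 13 were called (limma adjusted p = 0.0671 for Pecam1 and 0.0512 for Plvap); 7 had an unadjusted p under 0.05 and were lower, as were 9.19% of all genes. Within slides the median was -1.64, -1.81 and -2.28. In whole kidney, fewer endothelial cells and less receptor RNA per endothelial cell cannot be told apart, and the part of the endothelial marker level in the receptor result was not tested.

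The endothelial markers did not all move alike. S1pr1, the sphingosine-1-phosphate receptor, differed by -3.70 (limma adjusted p = 0.0829), Eng, a TGF-beta co-receptor, by -3.34 (adjusted p = 0.184) and Emcn, a sialomucin of capillaries and veins, by -2.58 (adjusted p = 0.213). S1pr1 was well above background on 4 saline arrays and 1 colistin array. Its size is uncertain, and its direction is partly set by the filter on dim probes. Cldn5, a tight junction protein, differed by -0.55 (adjusted p = 0.294), Vwf, the clotting protein of larger vessels, by -0.10 (adjusted p = 0.917) and Ramp2, the adrenomedullin receptor partner, by 0.47 (adjusted p = 0.793). Cdh5, the junction cadherin that binds KDR, was counted with the 22 transducers and not with the 13 markers. It differed by -0.30 (limma adjusted p = 0.719). On colistin arrays 1 to 4 the median marker difference from the saline mean was -3.11, -2.50, -1.07 and -0.75. Of the 3 tested lymphatic markers 0 were called by limma, and 0 had an unadjusted p under 0.05 (median -0.06).

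**Figure D4:**
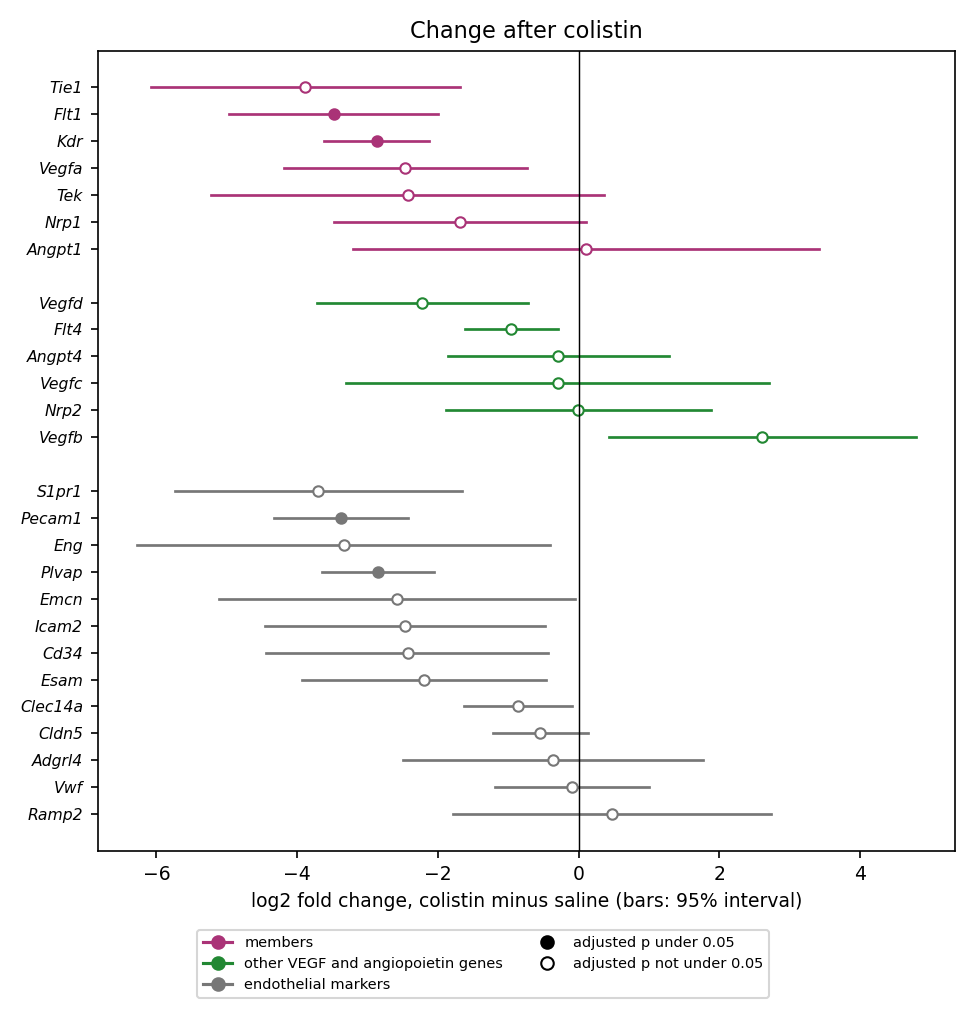
Log2 fold change, colistin minus saline (x axis), with its 95% interval, for the 7 tested members, 6 tested genes of the same families and 13 endothelial markers (y axis), 4 arrays per group. Filled points passed limma's test at an adjusted p under 0.05: Kdr, Flt1, Pecam1 and Plvap. The Tie1 point rests on colistin arrays in the background. Points of other genes, such as Tek, S1pr1 and Vegfb, rest partly on arrays in the background.

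Markers of other kidney cells, which include the sources of the ligands, were often lower too. At an unadjusted p under 0.05 (limma), 5 of 13 podocyte and 5 of 12 pericyte and smooth muscle markers were lower. So were 6 of 12 proximal tubule, 5 of 9 thick ascending limb and 5 of 9 macrophage markers, against 12.2% of all genes. On that measure 1 podocyte and 1 proximal tubule marker were higher, and 0 in the other lists named here. In 7 of 12 proximal tubule markers all colistin arrays lay below the saline arrays, against 11.7% of all genes. Of 13 tested podocyte markers, 1 was called lower, 10 had a negative and 3 a positive difference (median -0.75). Podxl, podocalyxin, which vascular endothelium also makes, fell by 3.15 (difference -3.15 ± 0.51; limma adjusted p = 0.0246). Nphs1, nephrin, differed by -1.42 (limma adjusted p = 0.139). Cd2ap, an adaptor of the slit diaphragm, differed by 2.05 without overlap (limma adjusted p = 0.0745), Plce1, a phospholipase, by 3.06 (adjusted p = 0.25) and Ptpro, a phosphatase, by 0.46 (adjusted p = 0.852). Plce1 was well above background on 0 saline and 3 colistin arrays. Its difference rests on background values, and its direction is partly set by the filter on dim probes. Of 12 pericyte and smooth muscle markers, 1 was called lower and 12 were negative (median -1.02): Mcam, which endothelial cells also carry, fell by 3.88 (difference -3.88 ± 0.67; limma adjusted p = 0.0297), was well above background on 2 of 4 colistin arrays, and differed by -1.37 under normexp (adjusted p = 0.0311). Pdgfrb, the pericyte receptor, differed by -3.07 (limma adjusted p = 0.13). The list means were -2.23 to -1.16 on saline and -2.30 to -1.70 on colistin arrays for podocyte markers, and -1.57 to -1.02 against -3.59 to -2.68 for pericyte and smooth muscle markers.

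The labelled tissue was checked on 12 proximal tubule markers, all of which passed the filter on dim probes, with a list mean of 3.78 to 4.63 on saline and 3.17 to 3.79 on colistin arrays. Of these 12, 2 fell, Slc22a6, the organic anion transporter, by 1.91 (difference -1.91 ± 0.33; limma adjusted p = 0.0297) and Aqp1, the water channel, by 1.72 (difference -1.72 ± 0.29; limma adjusted p = 0.0284), 9 had a negative and 3 a positive difference, and the median was -1.18. The 3 positive were Cubn, the cubilin receptor (1.25, limma adjusted p = 0.388), Slc5a2, a glucose transporter (1.14, adjusted p = 0.2), and Slc7a13, an amino acid transporter (0.72, adjusted p = 0.723). Of 9 thick ascending limb markers 1 fell, Egf, the epidermal growth factor precursor (difference -5.41 ± 0.59; limma adjusted p = 0.00655; median of the list -1.64). Of 9 tested macrophage markers 1 fell, Ctss, cathepsin S (difference -2.01 ± 0.38; limma adjusted p = 0.0428; median of the list -1.35), while Cd163, Mrc1 and Itgam were not well above background on any array. The calls of Podxl, Mcam, Slc22a6, Aqp1 and Ctss were lost in 4, 6, 7, 5 and 8 of the 8 fits that leave out 1 array (limma adjusted p = 0.0506 to 0.104). With the slide as a fixed block all 5 were lost (limma adjusted p = 0.104, 0.096, 0.118, 0.122 and 0.096). The part of these cell types in the member results was not tested.

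Genes whose values ran most like those of Kdr and Vegfa were picked from 9247 genes well above background on all 8 arrays, as a description over 8 arrays that share the difference between groups. For Kdr these were Tubb4a (Pearson r = 0.984), Scx (0.98), Hey1 (0.979), Nr4a2 (0.977) and Podxl (0.974). For Vegfa, by probe A_64_P099891, they were Chrm5 (r = 0.966), Cdh3 (0.965), Acmsd (0.964), Or8g4 (0.96) and Ccr1l1 (0.959). After each group's mean was taken away, the 5 genes nearest Kdr were Rhbdd3, Lgals5, Khdrbs3, Crtc1 and Maco1 (r = 0.928 to 0.953) and the 5 nearest Vegfa were Nudt4, Dcdc2, Ston1, Fxyd5 and Ecel1 (r = 0.925 to 0.977). No gene was on both lists of Kdr or both lists of Vegfa. These are the highest of 9247 values over 8 arrays, so high r values can come from the choice alone. None was tested.

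Under normexp the calls widened, and 5 members were lower: Kdr, Flt1, Tie1, Tek and Vegfa. Under that correction 21.8% of all genes were called lower, so the wider count is set against a much higher background. Tie1 and Tek entered the test through the saline group alone, so their direction is partly set by the filter on dim probes. The differences were -2.55 for Kdr, -2.81 for Flt1, -1.05 for Tie1, -0.90 for Tek and -2.15 for Vegfa, and the receptor median was -1.09.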

How the data were processed

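The deposited scanner tables hold spot intensity values from Agilent Feature Extraction 10.5 (software named by the submitters). Background, per the file headers, had been subtracted within each array and arrays were not scaled to each other. The deposited series table holds log2 values of unstated scale. Its differences between columns followed those of log2 processed signal (r at least 0.99986), its column medians were -0.229 to 0.232, and it served as an alternative.

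Control and outlier spots were dropped (257 to 461 flagged spots per array), spots of 1 probe were averaged, and log2 signal was set relative to the 75th percentile of its array. The filter left 23718 probes, those detected above background on 3 or more arrays of a group. Names came from RefSeq accessions (GRCr8), and the brightest named probe stood for its gene (12411 genes). The test was limma 3.58.1 (R 4.3.3; lmFit, then eBayes), two-sided, its p-values adjusted by Benjamini-Hochberg across genes and called under 0.05, and it was tested on simulated data. Normexp (offset 50) took median spot signals, since mean signals were not used here. Further alternatives were quantile and median scaling, other filters, the mean over probes, trended variance, slide and replicate blocks, and fits without single arrays. The number of arrays limits the precision.

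The members and lists were chosen with earlier results of these data known, so no list is independent evidence. All members are named, as are up to 4 genes of each list that passed and, where fewer than 2 passed, the brightest up to 2 genes; further list genes were named for their role after their values were seen. Genes like Kdr or Vegfa are the 5 with the highest r over the arrays and the 5 with the highest r after group means were removed, without placeholder symbols. Same-numbered arrays did not deviate together (r -0.02 to 0.01), so the numbers were not taken as pairs.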

Additional observations from a re-analysis of the deposited data

Results flagged for a closer look

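In 22 groups of 4 arrays, the highest or lowest value of each member probe was set against the spread of its group, and 3 stood apart by Dixon's criterion, where chance gives about 1 in 20. Saline array 4 was low for 2 of the 4 Vegfa probes, at -1.91 for A_64_P099886 and -2.25 for A_64_P155983, both assigned to the same transcript record. Saline array 3 was high for Nrp1, at 0.80, in all 10 spots of the probe.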

How the results depend on the processing

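Kdr was lower in all 20 alternatives (difference -3.05 to -2.55) and passed in 18, failing with the slide as a fixed block and with the replicate block (limma adjusted p = 0.0027 to 0.0728 over all 20). Flt1 was lower in all 20 (-3.97 to -2.81) and passed in 10 (0.0212 to 0.115). Nrp1 passed in 0 of 20, Tek in 1 of 19 (normexp), Tie1 in 3 of 19 (normexp, without saline array 4, and without saline arrays 1 and 4) and Vegfa in 1 of 20 (normexp); with only probes well above background on all arrays, Angpt1, Tek and Tie1 gave no value and the ligand median was -2.46, that of Vegfa alone. Over all genes the main counts were 181 higher and 67 lower. Normexp gave 684 higher and 2706 lower, 20.2% higher among calls against 73%, with 5 members lower and a receptor median of -1.09. Of those members, Tie1 and Tek entered the test through the saline group alone. The normexp median over all genes was -0.34 against -0.14, and the cause was not tested. Trended, robust variance gave 146 lower, and the slide as a fixed block gave 35 higher, 5 lower and 0 members, with fewer residual degrees of freedom. The replicate block gave 5 higher, 0 lower and 0 members (limma; 2252 genes had an unadjusted p under 0.05), and same-numbered arrays share only a number. Leaving out 1 array gave 59 to 190 higher, 19 to 65 lower and 1 to 2 members lower, and leaving out saline arrays 1 and 4, an alternative chosen after seeing the data, gave 114 higher and 29 lower, with Kdr and Tie1 called and Flt1 not. The sign of Angpt1 turned with normexp (-0.30), the slide block (-0.61), without saline arrays 1 and 4 (-1.02) and among fits without 1 array (-0.98 to 1.19). Genes with differences near 0 also turned: Serpinf1 (normexp 0.01, quantile 0.04, without saline arrays 1 and 4 0.75), Angpt4 (0.33 without those arrays) and Reln (0.65 without them), and, among fits without 1 array, Serpinf1 (-0.42 to 0.64), Angpt4 (-0.92 to 0.04), Reln (-0.53 to 0.70), Cited2 (-0.52 to 0.26) and Ets2 (-0.17 to 0.59). A gene at the background, as Tie1, Tek and Angpt1 were on some arrays, has no measured level there.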
